A study of Mus musculus with 19 samples.

Results

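The 10 genes described here, *Atf4*, *Ddit3*, *Atf3*, *Atf5*, *Trib3*, *Ppp1r15a*, *Chac1*, *Asns*, *Sesn2* and *Ddit4*, belong to the ATF4 and CHOP arm of the integrated stress response. They were chosen by name, from a list drawn up with the genotype comparison of these same embryos already known, out of 41388 genes in the count table, of which 26920 had at least 1 count. All 10 passed the filter of 10 counts in at least 1 embryo, as did 17137 genes in all. Because of how they were chosen, the difference of each gene between the genotypes is given as a description, and calls from the fit over all genes are counted for them only beside the share of all genes called.

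The libraries came from 19 single whole blastocysts at E3.25. Of these, 8 were *Upf2*-null (Upf2-/-) and 11 were control littermates (Upf2+/+) from crosses of *Upf2*-heterozygous mice. The null allele had been made from a floxed allele on a C57BL/6 background with Cre driven by the *E2a* promoter, which acts early in the embryo and gives a global deletion. It removes exons 2 and 3 of *Upf2* and leaves a truncated protein without activity in nonsense-mediated RNA decay (NMD), the pathway that degrades mRNAs with a stop codon in an aberrant context. Mothers were superovulated females of 4 to 8 weeks, zygotes of both genotypes were cultured to the blastocyst stage, and each embryo was genotyped on its own cDNA. No litter or batch of an embryo is given in the sources used here.

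In the integrated stress response, kinases that sense amino acid shortage, unfolded proteins, haem shortage or double-stranded RNA phosphorylate the translation factor eIF2. General translation then falls, while upstream reading frames in the leader of *Atf4* let its own coding sequence be translated more. ATF4 is a bZIP transcription factor that raises the mRNAs of other factors, among them CHOP, the product of *Ddit3*, and of genes for amino acid supply, redox balance and growth control. Several mRNAs of the pathway, *Atf4* itself among them, are known from cultured mammalian cells as targets of NMD.

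Library totals ran from 4068350 to 5993745 counts in *Upf2*-null blastocysts, against from 4056072 to 5854659 in controls. The 3 deepest *Upf2*-null libraries were those of embryos 1, 2 and 3, with 5329667, 5601453 and 5993745 counts, and the other 5 had at most 4854737. *Upf2* itself was at 90.9 ± 21.3 CPM (TMM-scaled counts relative to the library total; SD, n = 8) in *Upf2*-null blastocysts, against 57.8 ± 16.5 CPM (SD, n = 11) in control blastocysts, but counts over the whole gene include the exons that remain and check no label. All 8 trophectoderm markers and all 8 epiblast markers were measured in these libraries, whereas none of 6 cumulus and granulosa cell markers passed the filter, with 3 counts at most in any embryo. Each library is a whole embryo, in which fewer cells of a type and less RNA per cell cannot be told apart.

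*Ddit3* and *Atf4* were higher in *Upf2*-null embryos, and most of the other genes overlapped widely between the genotypes. *Ddit3* averaged 2.53 times and *Atf4* 1.35 times the control level, while *Asns*, *Ppp1r15a*, *Chac1* and *Trib3* averaged at most 1.37 times with wide overlap, and *Sesn2* averaged 0.679 times the control level. Of the 10 genes, 8 had a fitted log2 fold change above 0 and 2 below, with a median of 0.42. Among all 17137 genes, 8172 were above 0 and 8965 below, with a median of −0.02. Without *Upf2*-null embryos 1, 2 and 3, *Trib3*, *Chac1*, *Asns* and *Ppp1r15a* were below 0 as well. In the quasi-likelihood test of edgeR, at a Benjamini-Hochberg adjusted p of 0.1 over all genes, 1 of the 10, *Ddit3*, was called higher, where 0.175% of all genes were called higher and 0.0175% lower. At an unadjusted p under 0.05, *Ddit3*, *Atf4* and *Atf3* were among the higher genes, against 5.15% of all genes higher and 7.38% lower. DESeq2, the tool of the study, called 2, *Ddit3* and *Atf4*, where it called 0.694% of its genes higher and 0.504% lower. These counts come from the contrast by which the genes were chosen and carry no weight of their own.

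**Figure D1:**
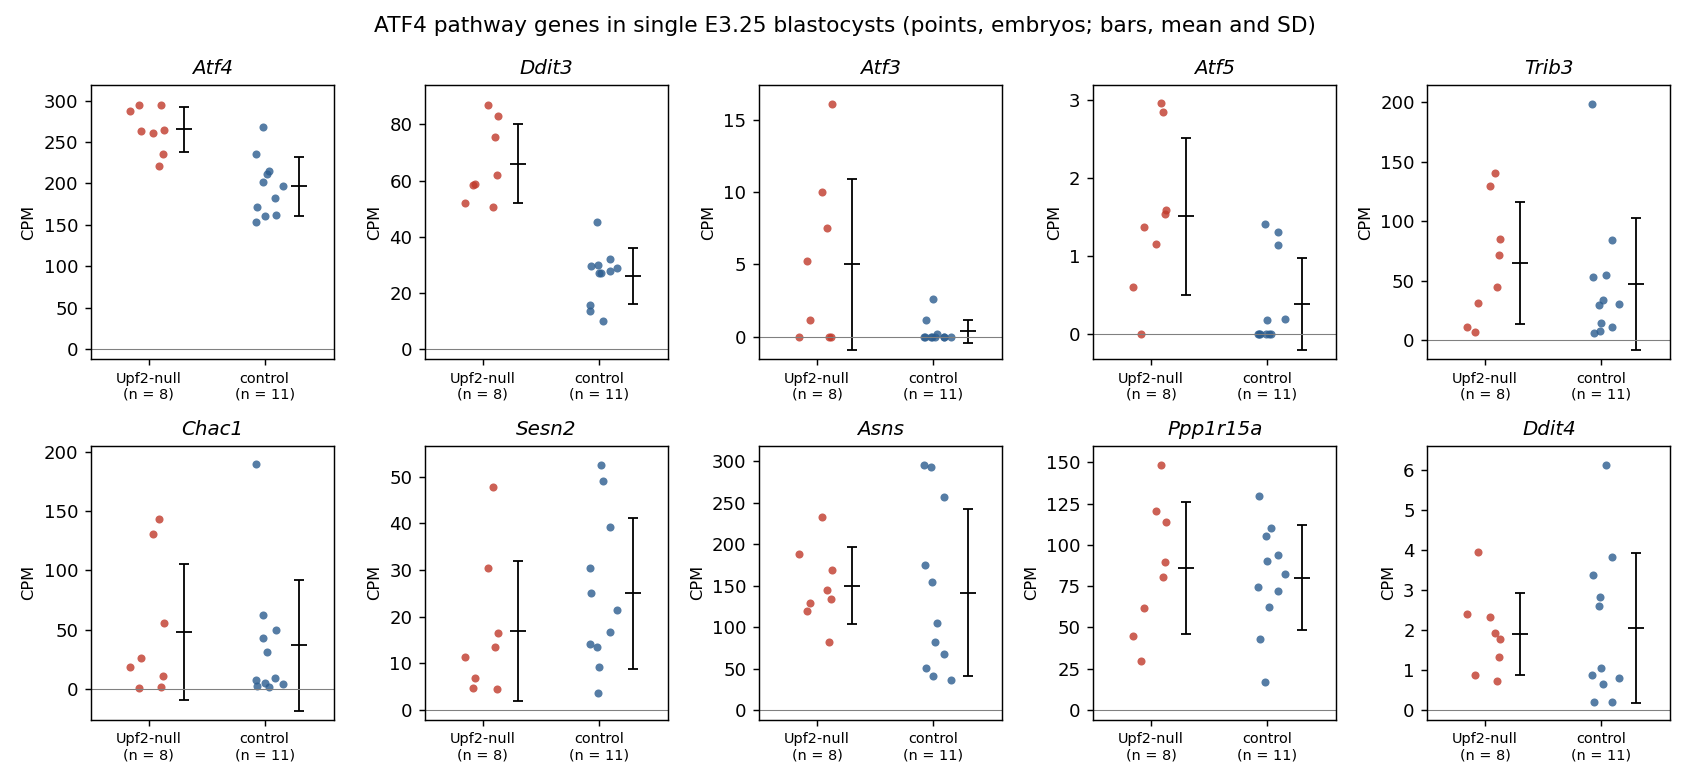
Each panel plots 1 gene in CPM on a linear axis, with each point 1 embryo, 8 *Upf2*-null on the left and 11 controls on the right, and with the mean and SD beside the points. *Ddit3* separates the genotypes without overlap, *Atf4* overlaps in part, and the other 8 genes overlap widely or are near 0.

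*Ddit3*, on chromosome 10 of GRCm38 from 127290774 to 127296288 on the plus strand, encodes CHOP, a bZIP factor that dimerises with C/EBP proteins and is linked to death under prolonged stress. In *Upf2*-null embryos 1 to 8 it had 87.0, 83.1, 50.7, 58.3, 58.7, 62.1, 52.2 and 75.6 CPM. In the 11 controls the lowest value was 9.88, the median 28.0 and the highest 45.3 CPM. Every *Upf2*-null embryo was above every control, a pattern shown by 15 of all 17137 genes (0.0875%), while every *Upf2*-null embryo was below every control for 1 gene (0.00584%). The log2 fold change was 1.34 ± 0.23 (SE, n = 8 and 11). Within the controls, embryos 4, 5 and 11 were low, with 13.5, 15.7 and 9.88 CPM, and embryo 6 was the highest. The 3' end of *Ddit3* overlaps the antisense gene *Mars*, methionyl-tRNA synthetase, over 68 bases, and strand is not stated for the counts. *Mars* was at 322 ± 88.9 CPM (SD, n = 8) in *Upf2*-null blastocysts, against 340 ± 74.2 CPM (SD, n = 11) in control blastocysts. Its log2 fold change was −0.08 ± 0.15 (SE).

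*Atf4*, on chromosome 15 from 80255184 to 80257541 on the plus strand, encodes the central factor of the response. It had 261, 264, 221, 295, 263, 235, 288 and 294 CPM in *Upf2*-null embryos 1 to 8, and in controls the lowest value was 154, the median 197 and the highest 268 CPM. All 8 *Upf2*-null embryos were above the control median, 3 were above every control, and 9 of 11 controls were below the lowest *Upf2*-null embryo. Control embryos 4 and 6, at 236 and 268 CPM, were the exceptions. The log2 fold change was 0.43 ± 0.10 (SE). *Atf4* varied least of the 10 genes, with a coefficient of variation of 10.2% in *Upf2*-null blastocysts, against 17.9% in controls. The ratio of *Ddit3* to *Atf4* CPM spanned 0.181 to 0.333 (median 0.244) in *Upf2*-null blastocysts, against from 0.0460 to 0.176 (median 0.148) in controls. *Ddit3* alone already separated the genotypes, and the same ratio was not computed for other genes, so these values are a description only.

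Without *Upf2*-null embryos 1, 2 and 3, the deepest of that genotype, the log2 fold change was 1.23 for *Ddit3* and 0.49 for *Atf4*. With the log2 library total as a covariate it was 1.35 for *Ddit3* and 0.43 for *Atf4*. Of 8 epiblast markers in the same libraries, 6 had a log2 fold change below 0, as did 8965 of all 17137 genes, and *Esrrb* and *Sox2* were above 0. At an adjusted p of 0.1, edgeR called none of the 8 and DESeq2 called 2 lower. Their summed level ran from 393 to 483 CPM (median 424) in *Upf2*-null blastocysts, against from 446 to 866 CPM (median 593) in controls. None of the 8 was at 0 in every embryo. The part of these markers in the difference of *Ddit3* and *Atf4* was not tested. Of 6 primitive endoderm markers 5 were tested, without *Foxa2*, and 3 were above 0 and 2 below. They summed to between 131 and 228 CPM (median 199) in *Upf2*-null blastocysts, against between 95.1 and 229 CPM (median 164) in controls. Of 8 trophectoderm markers 6 were above 0 and 2 below. The trophectoderm markers summed to between 1619 and 2080 CPM in *Upf2*-null blastocysts, against between 1360 and 2365 CPM in control blastocysts.

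The other transcription factors of the group were scarce. *Atf3*, on chromosome 1 from 191170296 to 191218039 on the minus strand, encodes a stress-induced bZIP factor that mostly represses. It had 10.0, 16.1, 7.49, 5.22, 1.18, 0, 0 and 0 CPM in *Upf2*-null embryos 1 to 8, and in controls 8 of 11 embryos were at 0, with a highest value of 2.60 CPM in embryo 7. The fitted log2 fold change of 3.68 ± 1.27 (SE) rested on 216 counts in 8 *Upf2*-null blastocysts, against 22 in 11 controls, and the groups overlapped. Embryos 1 to 4 held nearly all of the *Upf2*-null counts. Without embryos 1, 2 and 3 the log2 fold change was 1.75. *Atf5*, on chromosome 7 from 44812256 to 44816658 on the minus strand, encodes a bZIP factor controlled at translation like ATF4. It had from 0 to 2.96 CPM (median 1.46) in *Upf2*-null blastocysts, against from 0 to 1.42 CPM (median 0) in controls, with at most 17 counts in any embryo. Its log2 fold change was 1.90 ± 1.02 (SE).

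2 of the genes feed back on the response. *Trib3*, on chromosome 2 from 152337422 to 152344032 on the minus strand, encodes a pseudokinase that is induced by ATF4 and CHOP and restrains them. It had 130, 84.9, 140, 6.31, 31.1, 71.2, 10.8 and 44.5 CPM in *Upf2*-null embryos 1 to 8, and in controls the lowest value was 6.00, the median 30.5 and the highest 199 CPM, in embryo 5. The groups overlapped over nearly their whole range, and the log2 fold change was 0.45 ± 0.62 (SE). *Ppp1r15a*, on chromosome 7 from 45522916 to 45526268 on the minus strand, encodes GADD34, which directs protein phosphatase 1 to eIF2 and so ends the response. It had 120, 114, 148, 29.6, 61.8, 89.5, 44.6 and 80.6 CPM in *Upf2*-null embryos 1 to 8, and in controls the lowest value was 16.8, the median 82.6 and the highest 130 CPM. Only *Upf2*-null embryo 3 was above every control, and the log2 fold change was 0.10 ± 0.31 (SE).

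The 4 effector genes did not separate the genotypes. *Asns*, asparagine synthetase, on chromosome 6 from 7675169 to 7693254 on the minus strand, had from 82.3 to 233 CPM (median 140) in *Upf2*-null blastocysts, against from 36.6 to 295 CPM (median 105) in controls. Its log2 fold change was 0.08 ± 0.37 (SE). The coefficient of variation was 30.8% in *Upf2*-null embryos and 70.8% in controls, which were spread more widely. *Chac1*, which encodes an enzyme that cleaves glutathione and is induced through ATF4, lies on chromosome 2 from 119351229 to 119354381 on the plus strand. It had 131, 55.3, 143, 0.653, 26.4, 10.8, 18.5 and 1.66 CPM in *Upf2*-null embryos 1 to 8, and in controls the lowest value was 1.44, the median 8.98 and the highest 190 CPM. The values of embryos 4 and 8 came from 3 and 7 counts, those of embryos 1 and 3 from 680 and 822, and the log2 fold change was 0.40 ± 0.89 (SE).

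*Sesn2*, on chromosome 4 from 132492032 to 132510501 on the minus strand, encodes a sestrin that senses leucine and restrains mTORC1. It was the gene with the largest difference in the other direction. Its *Upf2*-null embryos ran from 4.42 to 47.9 CPM (median 12.5) and its controls from 3.60 to 52.5 CPM (median 21.4), with 2 of 8 *Upf2*-null embryos above the control median. The log2 fold change was −0.56 ± 0.50 (SE), so the difference was about the size of its error. *Ddit4*, REDD1, an inhibitor of mTORC1 on chromosome 10 from 59949669 to 59951834 on the minus strand, had from 0.713 to 3.94 CPM (median 1.84) in *Upf2*-null blastocysts, against from 0.188 to 6.11 CPM (median 1.04) in controls. It had at most 34 counts in an embryo, and a log2 fold change of −0.10 ± 0.65 (SE).

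**Figure D2:**
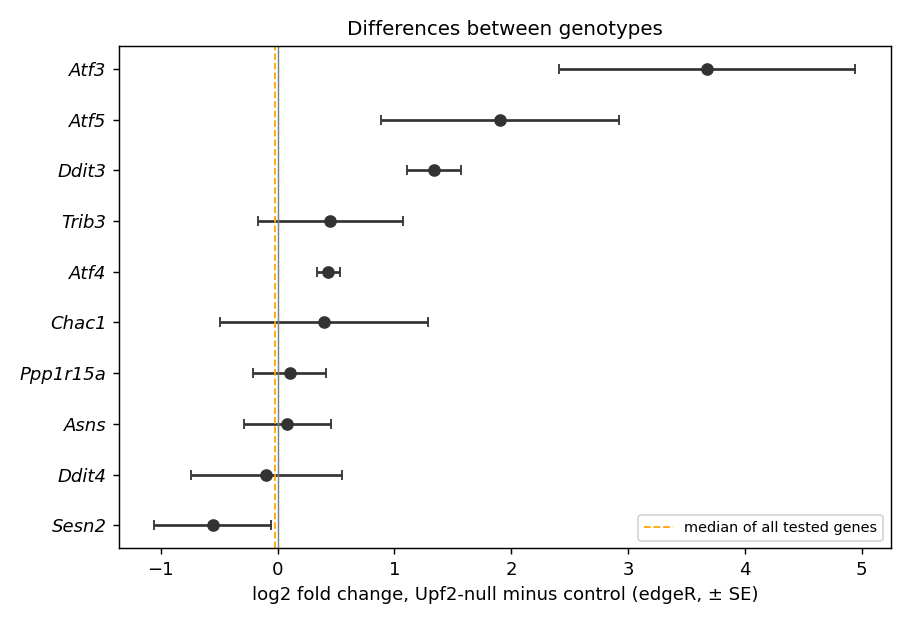
The horizontal axis is the log2 fold change of *Upf2*-null minus control embryos from edgeR, with its SE as the bar, for each of the 10 genes, and the dashed line is the median of all tested genes at −0.02. *Ddit3* at 1.34 and *Atf4* at 0.43 have short bars, whereas *Atf3* at 3.68 and *Atf5* at 1.90 have wide bars.

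*Trib3*, *Chac1*, *Ppp1r15a* and *Sesn2* were each higher in the 3 deepest *Upf2*-null libraries than in the other 5. In embryos 1, 2 and 3, *Sesn2* had 30.4, 16.5 and 47.9 CPM, and in the other 5 it had at most 13.6 CPM. Without these embryos, chosen by depth after the values were seen, the log2 fold change was −0.54 for *Trib3*, −1.66 for *Chac1*, −0.12 for *Asns*, −0.39 for *Ppp1r15a* and −1.61 for *Sesn2*, so that the first 4 changed sign. The correlation of each gene with the log2 library total was computed within each genotype, 20 relations in all. The closest was that of *Chac1* in *Upf2*-null embryos, with Pearson's r = 0.90 (exact permutation p = 0.0031, adjusted p = 0.062), Spearman's rho = 0.95 (exact permutation p = 0.00114, adjusted p = 0.0228) and r = 0.85 once the 2 libraries with totals farthest from the median were left out. In controls the same relation had r = −0.57 (permutation p = 0.0685, adjusted p = 0.198) and rho = −0.58 (permutation p = 0.0647, adjusted p = 0.185). For *Ddit3* it was r = −0.003 in *Upf2*-null blastocysts, against r = −0.43 in controls, with exact or permutation p of 0.994 and 0.181. For *Atf4* it was r = −0.65 in *Upf2*-null blastocysts, against r = −0.55 in controls, with exact or permutation p of 0.0826 and 0.0776 (adjusted p = 0.198 for each). Whether the 3 deepest *Upf2*-null libraries were handled apart from the others was not tested.

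Within a genotype, the mRNA levels of the other 9 genes were compared with that of *Atf4*, their regulator. Of 18 relations on log2 CPM, 9 in each genotype, none passed an adjusted p of 0.1. The 9 relations of a genotype share the same *Atf4* values, and in controls the correlations had both signs. In *Upf2*-null embryos 8 of the 9 correlations were negative. Only 4, those of *Atf5*, *Trib3*, *Chac1* and *Ppp1r15a*, were negative once the trend on library total was removed, and *Trib3* then had r = −0.57. With the trend left in, the lowest in *Upf2*-null embryos was that of *Trib3*, with r = −0.73 (exact permutation p = 0.0419, adjusted p = 0.308). Its rho was −0.79 (exact permutation p = 0.0279, adjusted p = 0.251), and r was −0.73 without the 2 embryos farthest from the *Atf4* median. *Ppp1r15a* had r = −0.72 (exact permutation p = 0.0453, adjusted p = 0.308) and rho = −0.79 (exact permutation p = 0.0279, adjusted p = 0.251). For *Ddit3* against *Atf4*, r was 0.21 in *Upf2*-null embryos (exact permutation p = 0.611, adjusted p = 0.845) and 0.04 in controls (permutation p = 0.908, adjusted p = 0.908). Without the 2 embryos farthest from the *Atf4* median, r of this pair was −0.48 in *Upf2*-null embryos and −0.62 in controls, so both signs turned. At these numbers of embryos a weaker relation was not detectable.

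*Trib3* and *Ppp1r15a*, the feedback genes, followed each other closely in *Upf2*-null embryos. Over all 90 pairs, 45 in each genotype, a family added after the values were seen, theirs was the single pair with an adjusted p under 0.1. Pearson's r was 0.99 (exact permutation p = 2.48e-05, adjusted p = 0.00223) and Spearman's rho was 1 (exact permutation p = 4.96e-05, adjusted p = 0.00446), since both genes put the 8 embryos in the same order. Without the 2 embryos farthest from the *Trib3* median r was 0.97, and with the trend on library total removed it was 0.98. In the 11 controls the pair had r = 0.09 (permutation p = 0.786, adjusted p = 0.943) and rho = 0.10 (permutation p = 0.777, adjusted p = 0.982). The difference between the genotypes in this correlation was not tested. Of the 45 pairs, 34 had a positive r in *Upf2*-null blastocysts, against 17 in controls, and with the trend on library total removed 25 had one in *Upf2*-null blastocysts, against 20 in controls. In controls the lowest p was that of *Chac1* with *Asns*, with r = 0.74 (permutation p = 0.0113, adjusted p = 0.302) and rho = 0.76 (permutation p = 0.00881, adjusted p = 0.267).

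**Figure D3:**
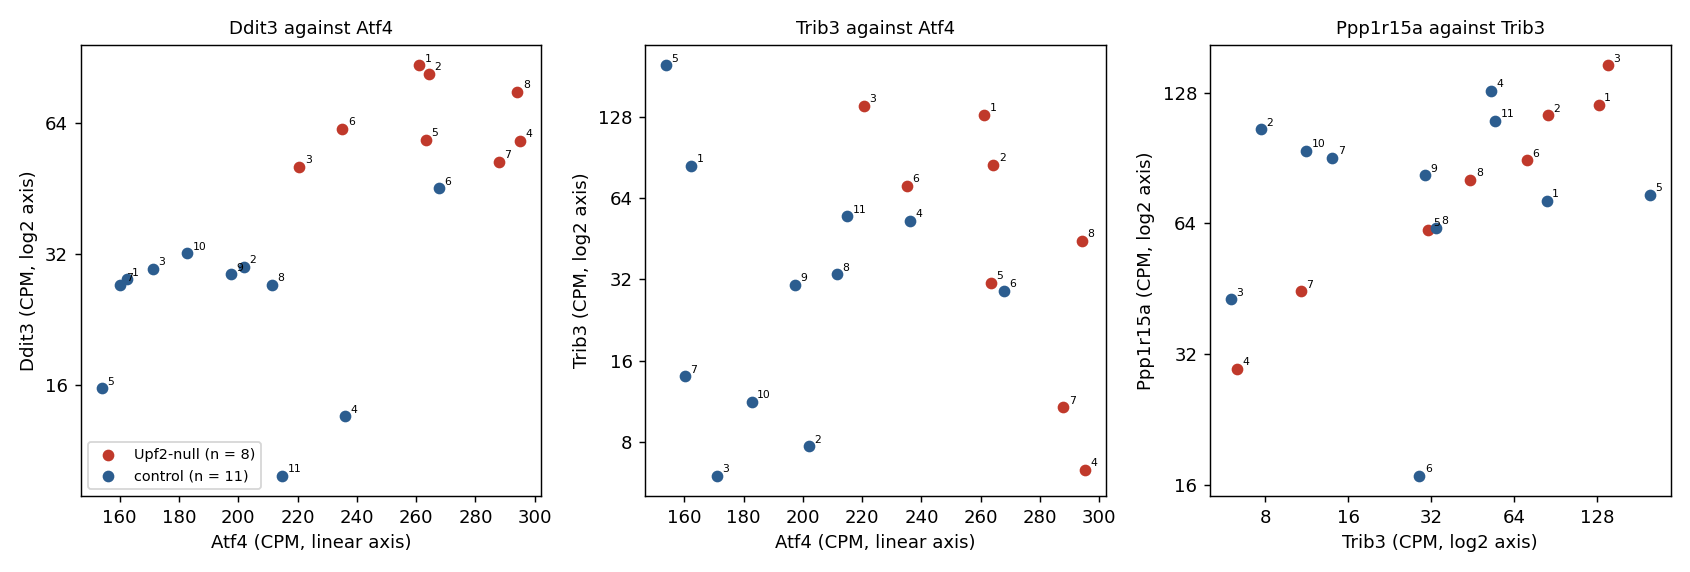
The panels plot *Ddit3* against *Atf4*, *Trib3* against *Atf4* and *Ppp1r15a* against *Trib3* in CPM, with *Atf4* on a linear axis and the other genes on log2 axes, each point 1 embryo with its number. The 8 *Upf2*-null embryos lie along 1 line in the last panel (r = 0.99), and the 11 controls are scattered (r = 0.09).

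The genes whose pattern was most like that of *Atf4*, over the 19 embryos after the mean of each genotype was subtracted and among 9247 other genes with a mean of at least 10 CPM, were *Srsf3* (r = 0.84), *P2rx7* (r = 0.83), *Sys1* (r = 0.79), *Mtus2* (r = 0.79) and *Mycbp* (r = 0.76). The closest to *Ddit3* were *B230354K17Rik* (r = 0.81), *Rap2b* (r = 0.78), *Zfp563* (r = 0.78), *Tcf19* (r = 0.78) and *Grm4* (r = 0.77). *Ddit3* took rank 4248 among the genes like *Atf4*, with r = 0.07. All values of an embryo share 1 library and its depth, and these correlations are given as a description.

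Scaled by the length of the exons (RPKM), *Atf4* was the most abundant of the 10 in control embryos and *Atf3* and *Atf5* the least. The control medians were 83.7 RPKM for *Atf4*, 38.5 for *Asns*, 28.1 for *Ppp1r15a*, 16.3 for *Ddit3*, 14.3 for *Trib3*, 6.17 for *Sesn2*, 5.48 for *Chac1*, 0.592 for *Ddit4*, and 0 for *Atf3* and *Atf5*. In all 9 neighbouring pairs of this order the ranges of the control embryos overlapped. In *Upf2*-null embryos the median of *Ddit3* was 35.2 RPKM, above that of *Ppp1r15a* at 29.0 RPKM, and *Atf4* was again the highest, at 112 RPKM. The order in controls was the same when the longest annotated transcript was taken as the length. The level of *Ddit3* depended on that choice, with a control median then of 28.9 RPKM, close to *Ppp1r15a* at 29.4 RPKM.

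**Figure D4:**
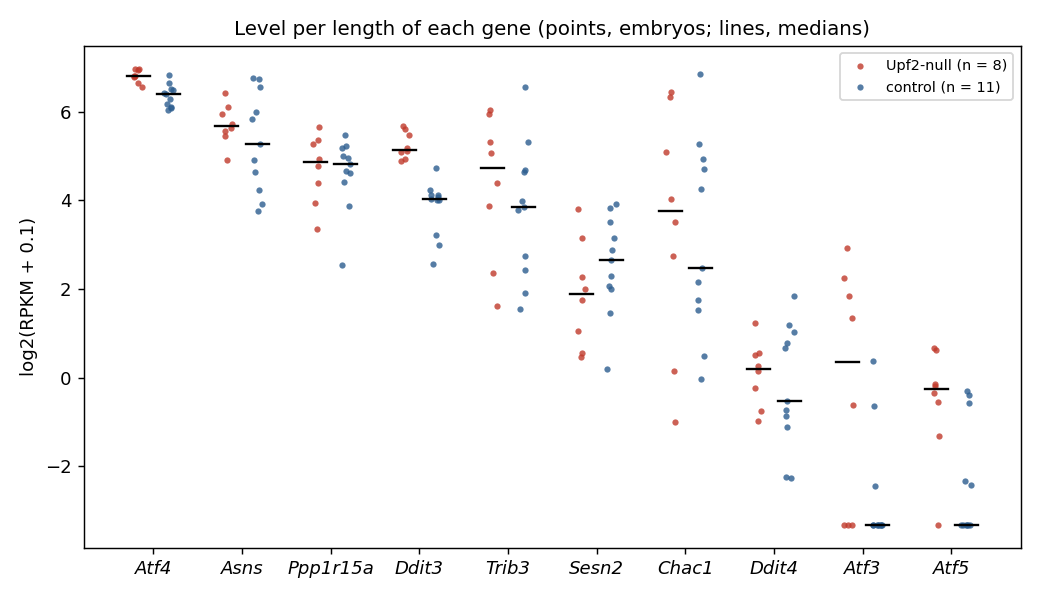
The vertical axis is log2(RPKM + 0.1) and the genes are ordered by their control median, with each point 1 embryo, 8 *Upf2*-null to the left of 11 controls for each gene, and lines at the medians. *Atf4* is the most abundant of the 10 genes in both genotypes, and *Chac1* and *Trib3* have among the widest spreads.

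ATF4 binds with C/EBP partners to a composite element of the form TGATGNAA. It was looked for on both strands from 250 bases before to 50 bases after the start of transcription in RefSeq promoters of GRCm38.p6, where all 10 genes had a promoter (11 promoters, with 2 for *Atf5*). A match was found for 4 of the 10, *Atf3*, *Chac1*, *Asns* and *Trib3*, and in 3.97% of all 32851 promoters. The single form TGATGCAA was found for 2 of the 10 and in 0.895% of promoters. *Ddit3* and *Atf4* had no match in this window, which says only that these letters are not there. The stretches that hold the matches upstream of the start are printed 5' to 3' on the strand of the gene, with the match in capitals, to show the element in the 3 genes that hold it there. They lie at chr1:191183425-191183454 on the minus strand for *Atf3*, at chr2:119351038-119351067 on the plus strand for *Chac1*, and at chr6:7693214-7693243 on the minus strand for *Asns*. Within them, the match itself lies 110 to 103 bases before the start for *Atf3*, 193 to 186 for *Chac1* and 23 to 16 for *Asns*.
Atf3: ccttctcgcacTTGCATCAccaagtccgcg
Chac1: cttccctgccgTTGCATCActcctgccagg
Asns: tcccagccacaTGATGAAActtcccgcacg
In *Atf3* and *Chac1* the element is read on the opposite strand, as TGATGCAA, and in *Asns* on the strand of the gene, as TGATGAAA. The match of *Trib3* was TGATGTAA, 15 to 22 bases after the start.

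Upstream start codons and an exon junction well after the stop codon are features known to expose an mRNA to NMD. In the GENCODE transcript with the longest coding sequence, 7 of the 10 genes had at least 1 ATG in the leader before the coding sequence, as did 50.5% of 21549 protein-coding genes. *Ppp1r15a* had 7, *Atf4* 3, *Ddit3* and *Atf5* 2 each, and *Atf3*, *Sesn2* and *Asns* 1 each, whereas *Trib3*, *Chac1* and *Ddit4* had none. Of the 3 in *Atf4*, 1 opens a frame that runs into the coding sequence, and both in *Ddit3* open frames that close before it. None of the 10 had a junction over 50 bases after the stop in that transcript, a feature of 0.394% of all genes. Only transcripts annotated as protein-coding were read, and those annotated under another type, such as NMD targets, were left out. The count therefore cannot show that a gene lacks such a transcript. The paper, which searched Ensembl transcripts with both UTRs, gave a larger share of all genes. The median 3' UTR was 688 bases for the 10 genes and 742 bases for all genes, with 81 bases in *Atf4* and 197 in *Ddit3*. The deposited transcript models, which hold no values per embryo, added 1 unannotated model at *Ddit3*, which runs through an intron of the main transcript, and 1 each at *Atf4* and *Trib3*. They added 1 at *Chac1* and 4 at *Asns*, all with an unannotated junction, and 3 at *Ppp1r15a*, of which 2 had such a junction. The other 4 genes had none.

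Beyond the 10 genes, of 109 further genes of the wider pathway in 9 lists, 107 were tested, with 52 log2 fold changes above 0 and 55 below and a median of −0.01. By edgeR with Benjamini-Hochberg adjustment over all genes, 1 of the 107 (0.935%) was called higher and 0 lower, where 0.175% of all genes were called higher and 0.0175% lower. It was *Atg12*, which encodes a ubiquitin-like protein of autophagosome formation. Its level was 293 ± 43.2 CPM (SD, n = 8) in *Upf2*-null blastocysts, against 211 CPM in control blastocysts (from 163 to 276 CPM, n = 11), a log2 fold change of 0.48 ± 0.10 (SE, edgeR adjusted p = 0.0811), and 8 of 8 *Upf2*-null embryos exceeded the control median. The call was lost in 11 of 19 fits that left out 1 embryo. At an unadjusted p under 0.05, 4 of the 107 genes (3.74%) were among the higher ones and 5 (4.67%) among the lower, both below the shares of 5.15% and 7.38% among all genes. They were 1 of the eIF2 kinases and GCN2 regulators, 1 transporter and 2 other effectors above 0, and 2 bZIP partners, 2 amino acid enzymes and 1 gene of the eIF2 phosphatase below 0, with none in the other lists. DESeq2 called *Atg12* and 1 further gene. Of 11 bZIP partners, 3 were above 0 and 8 below, and edgeR called none, while DESeq2 called *Cebpg* lower. It encodes a C/EBP partner of ATF4 and had 63.7 CPM in *Upf2*-null blastocysts, against 88.4 CPM in control blastocysts, a log2 fold change of −0.47 ± 0.14 (SE) with an adjusted p of 0.0628 by DESeq2 and 0.231 by edgeR.

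Among the regulators upstream, none of 6 kinases and GCN2 regulators was called by edgeR, and 5 had a log2 fold change above 0. The lowest p was that of *Impact*, an inhibitor of GCN2 activation, with 144 CPM in *Upf2*-null blastocysts, against 100.1 CPM in control blastocysts (log2 fold change 0.52 ± 0.18, SE; edgeR adjusted p = 0.262). *Eif2ak4*, GCN2 itself, had 14.9 CPM in *Upf2*-null blastocysts, against 7.28 CPM in control blastocysts (1.03 ± 0.59, adjusted p = 0.536 by edgeR). *Eif2ak2*, another kinase of this list, had the largest log2 fold change there, 2.573 ± 1.304 (SE, edgeR adjusted p = 0.444), but was near 0. It had 1.46 CPM in *Upf2*-null blastocysts (from 0 to 5.52 CPM), against 0.224 CPM in control blastocysts (from 0 to 1.38 CPM). None of 12 genes for eIF2, eIF2B and the eIF2 phosphatase was called by edgeR, with 3 above 0 and 9 below. *Ppp1cc*, a catalytic subunit of protein phosphatase 1, had 99.2 CPM in *Upf2*-null blastocysts, against 113.9 CPM in control blastocysts, and *Eif2b1* had 393 CPM in *Upf2*-null blastocysts, against 360 CPM in control blastocysts.

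Amino acid supply genes, the best-known targets of ATF4, were split in direction. Of 13 amino acid and one-carbon enzymes, 6 were above 0 and 7 below, and edgeR called none. *Cth*, which makes cysteine from cystathionine, had 139 CPM in *Upf2*-null blastocysts, against 189 CPM in control blastocysts (log2 fold change −0.44 ± 0.16, edgeR adjusted p = 0.263). *Phgdh*, the first enzyme of serine synthesis, had 196 CPM in *Upf2*-null blastocysts, against 287 CPM in control blastocysts (−0.55 ± 0.21, edgeR adjusted p = 0.271), with 0 of 8 *Upf2*-null embryos above the control median. Of 9 amino acid transporters, 5 were above 0 and 4 below, with none called by edgeR. *Slc7a1*, a carrier of cationic amino acids, had 20.9 CPM in *Upf2*-null blastocysts, against 7.75 CPM in control blastocysts (1.43 ± 0.62, edgeR adjusted p = 0.326). *Slc6a9*, a glycine transporter, was near 0, with 0.175 CPM in *Upf2*-null blastocysts (from 0 to 1.22 CPM). Its control mean was 1.13 CPM (from 0 to 8.40 CPM), a log2 fold change of −2.49 ± 1.43 (SE, edgeR adjusted p = 0.539). Of 14 genes for aminoacyl-tRNA synthetases and *Xpot*, 7 were above 0 and 7 below, and edgeR called none. *Nars* had 556 CPM in *Upf2*-null blastocysts, against 522 CPM in control blastocysts, and *Wars* 257 CPM in *Upf2*-null blastocysts, against 281 CPM in control blastocysts.

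CHOP is linked to death genes, and none of the 5 tested of 6 was called by edgeR, with 2 above 0 and 3 below. *Bcl2l11*, which encodes the pro-apoptotic BIM, had 63.8 CPM in *Upf2*-null blastocysts, against 78.0 CPM in control blastocysts (log2 fold change −0.29 ± 0.19, SE), and *Bax* had 113 CPM in *Upf2*-null blastocysts, against 137 CPM in control blastocysts (−0.29 ± 0.21, SE). Among the 12 tested of 13 other effectors, the list of *Atg12*, 7 were above 0 and 5 below. *Nupr1*, a chromatin protein induced by stress, had 56.1 CPM in *Upf2*-null blastocysts, against 19.7 CPM in control blastocysts (1.51 ± 0.54, edgeR adjusted p = 0.262). All 8 of 8 *Upf2*-null embryos exceeded the control median, but the control range of 1.15 to 94.3 CPM covered the *Upf2*-null range of 23.9 to 92.5 CPM. The IRE1 and ATF6 arms of the unfolded protein response, the part of stress signalling most like this one, had 14 of 25 genes above 0 and 11 below, with a median log2 fold change of 0.04 and none called by edgeR or DESeq2. *Herpud1*, a component of endoplasmic reticulum degradation, had 176 CPM in *Upf2*-null blastocysts, against 119 CPM in control blastocysts (0.56 ± 0.31, edgeR adjusted p = 0.499), and *Dnajb9*, a chaperone partner, had 40.5 CPM in *Upf2*-null blastocysts, against 68.6 CPM in control blastocysts (−0.76 ± 0.44, edgeR adjusted p = 0.540).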

How the data were processed

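The authors made cDNA from single blastocysts, used STAR 2.5.2a with the GRCm38 build, removed duplicate reads and deposited raw counts per Ensembl gene from featureCounts. The deposited scaled signal table is each count times 1 factor per embryo, with whole reads recovered for 100% of its values (tolerance 0.01), and edgeR on those reads called 33 genes. The deposited merged transcript models hold other data, exon positions, and no values. The filter was 10 counts in 1 or more embryos. Tests used edgeR 4.0.16 (robust quasi-likelihood after TMM) and DESeq2 1.42.0, and the method was tested on simulated data. Standard errors were taken from the quasi-likelihood F statistic. Correlations used log2 CPM with a prior count of 2, two-sided exact permutation over 40320 orders for 8 embryos, and 100000 permutations for 11. Adjusted p-values are Benjamini-Hochberg. Software was R 4.3.3, matplotlib 3.10.9, pandas 2.3.3, scipy 1.17.1 and numpy 2.4.6 under Python 3.11.15. Transcripts and lengths came from GENCODE M21, promoters from RefSeq. Embryos of the same genotype all differed beyond sampling noise (chi-square per gene of 10.5 or more), and none was counted as a repeat.

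The members and lists were chosen with earlier results of these data known. All 10 members are named, with the 5 genes most like *Atf4* and *Ddit3*. From the lists of the wider pathway, genes past the threshold in edgeR or DESeq2 are named, otherwise those with the lowest edgeR p. *Nupr1*, next by edgeR p after *Atg12* in its list, is named as well. Alternatives were other tools, normalizations, filters and thresholds, a block, a depth covariate, embryos left out and other motif, transcript and length choices; the recovered reads, the fit without *Upf2*-null embryos 1, 2 and 3, and the pairs of members were added after seeing the data.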

Additional observations from a re-analysis of the deposited data

How the results depend on the processing

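The log2 fold change of *Ddit3* lay between 1.23 and 1.44 over 30 alternatives. Counts of the 10 genes called come from the contrast by which they were chosen and carry no weight. The number of the 10 genes called, 1, was 2 with DESeq2, with a filter of 10 counts in 5 embryos, with the library total as a covariate and without *Upf2*-null embryos 1, 2 and 3, the added gene being *Atf4* each time. With 1 embryo left out it ran from 1 to 2. Of the wider pathway, 1 gene was called, against 2 with DESeq2 and without *Upf2*-null embryos 1, 2 and 3, 0 at an adjusted p under 0.05, and 0 to 2 with 1 embryo left out. Of all genes, 33 were called, against 176 with DESeq2, 51 with the covariate, 11 at 0.05, 229 without *Upf2*-null embryos 1, 2 and 3, and 14 to 43 with 1 embryo left out. The embryo numbers do not pair the embryos (correlations of same-numbered embryos from −0.137 to 0.069), and with a replicate block 0 of the 10, 0 of the wider pathway and 0 of all genes were called, where *Ddit3* had a log2 fold change of 1.35. Why more genes were called without *Upf2*-null embryos 1, 2 and 3 was not tested. The sign of *Trib3*, *Chac1*, *Asns*, *Ppp1r15a* and *Ddit4* turned in 1, 5, 5, 3 and 7 of 30 alternatives. The motif count of 4 was 2 with TGATGCAA alone, and the longer window was not run. Fewer than 100 counts per embryo limit what *Atf3*, *Atf5* and *Ddit4* can show.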
